A study of Canis lupus familiaris with 8 samples.

Results

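SLC5A3 and MRPS6 are genes on dog chromosome 31 that lie 873083 bases apart in the annotation used, and their mRNA levels were followed over 8 RNA-seq libraries of MDCK I cells. They were chosen by name, with the identifiers ENSCAFG00000009546 for SLC5A3 and ENSCAFG00000028779 for MRPS6, as 2 of the 32704 genes in the count table. Both were among the 19835 genes tested. MDCK I is an epithelial cell line derived from dog kidney. All cells were transfected with siRNA at 100 nM, and those labelled 500 mOsm were then kept for the last 24 h in medium made hyperosmotic with raffinose, which added 200 mOsm. The 4 groups were cells with the control siRNA, Neg-siRNA, kept either at 300 mOsm or at 500 mOsm, and cells with an siRNA against Nfat5, Nfat5-1-siRNA or Nfat5-2-siRNA, both kept at 500 mOsm. The control siRNA was directed against Slc22a6, a carrier gene that MDCK I cells do not express according to the study, so no group was free of siRNA. No group combined an Nfat5 siRNA with 300 mOsm. Each group held 2 libraries, replicate 1 from passage 15 and replicate 2 from passage 17 of the line, and total counts per library ranged from 34564103 to 46043788.

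SLC5A3 encodes SMIT1, a carrier in the plasma membrane that uses the sodium gradient to bring myo-inositol into the cell. Kidney cells facing a hyperosmotic medium accumulate myo-inositol, betaine, taurine and sorbitol as compatible osmolytes, and NFAT5 is the transcription factor best known for raising the genes that supply them. MRPS6 encodes a protein of the small subunit of the mitochondrial ribosome, which translates the mRNAs of the mitochondrial genome. In the human genome the coding exon of SLC5A3 lies inside the first intron of MRPS6, and the transcripts of both genes can share a leader exon.

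In the count table, built on CanFam3.1 with Ensembl 92, the genes were placed apart. SLC5A3 lay at chr31:28610332-28635233 on the plus strand with 2 exons, chr31:28610332-28610470 of 139 bases and chr31:28632518-28635233 of 2716 bases, which together made 2855 exonic bases. MRPS6 lay at chr31:29508317-29579317 on the same strand with 3 exons, chr31:29508317-29508455 of 139 bases, chr31:29563942-29564081 of 140 bases and chr31:29579131-29579317 of 187 bases, or 466 exonic bases in all. The end of SLC5A3 and the start of MRPS6 were 873083 bases apart. No other annotated gene overlapped the span of either, so no annotated exonic base of the pair was shared with another gene. The first exon holds 139 of the 466 exonic bases of MRPS6. Whether transcripts of SLC5A3 add reads to it through a shared leader exon was not tested. The table gives exons only and does not say which bases are coding or untranslated.

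The exon structures of the stretch around SLC5A3 recurred in the table further downstream. Exons of equal length (at least 50 bases) in different genes of the same strand were paired over chromosome 31 up to a distance of 2000000 bases, which gave 1421 pairs. Their distances were counted in bins of 10000 bases. The fullest bin, from 890 to 900 kb, held 125 pairs, against 60 in the next fullest and a median of 5 per bin. Of these 125 pairs, 124 fell into 16 pairs of genes that followed each other in the same order, with median distances between 897985 and 899186 bases. SLC5A3 and MRPS6 were the last of the 16 gene pairs, and gene pairs starting past them were not taken into this set. Their pairing rests on 1 exon pair, the first exons, which were both 139 bases long and lay 897985 bases apart. The other 15 gene pairs had median distances from 898753 to 899186 bases. Exons of 139 bases also occurred in ENSCAFG00000028778 and ENSCAFG00000009086. Moved by 897985 bases, the long exon of SLC5A3 would lie at chr31:29530503-29533218, inside the first intron of MRPS6 (chr31:29508456-29563941), where no exon is annotated.

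**Figure D1:**
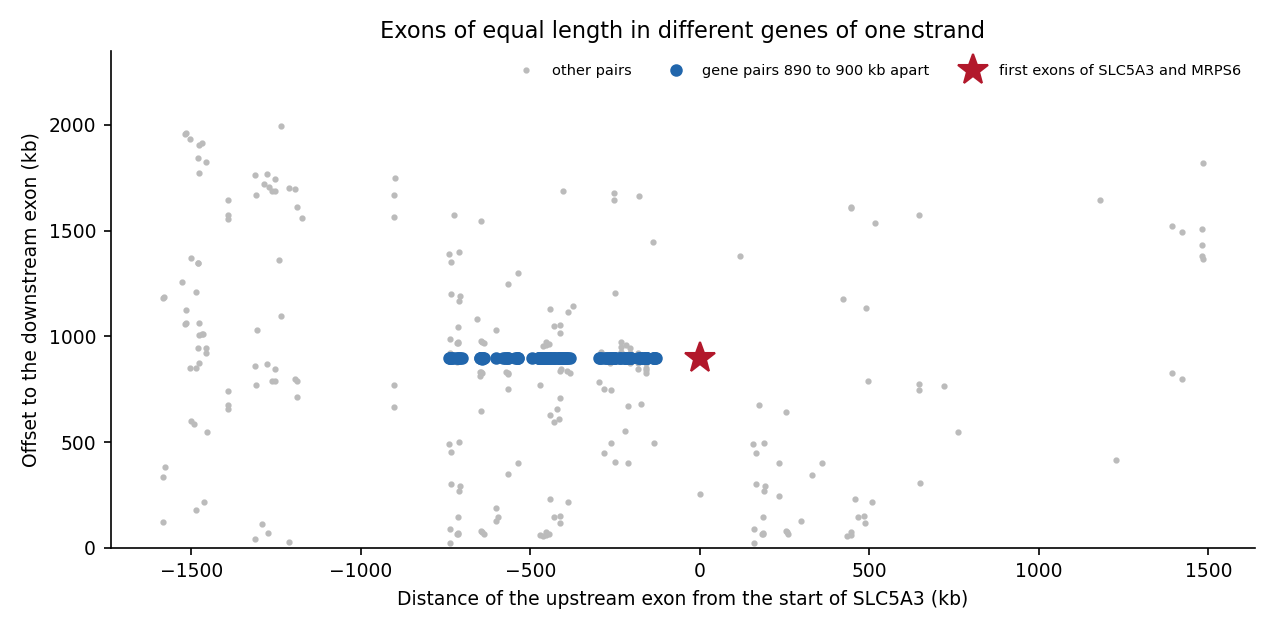
Each point is a pair of equal-length exons of different genes on the same strand of chromosome 31; the horizontal axis gives the distance of the upstream exon from the start of SLC5A3 in kb and the vertical axis the offset to the downstream exon in kb. Blue points are the gene pairs 890 to 900 kb apart, which form a horizontal line, and the red star at its end is the pair of 139-base first exons of SLC5A3 and MRPS6.

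The upstream and downstream members of these gene pairs, called copies below for their exon structure alone, did not hold the same levels. Of the 15 other gene pairs, 4 had an upstream copy with a mean of at least 1 CPM over the 8 libraries (CPM is a count scaled to the library's size with its TMM factor), the highest at 18.1 CPM. None of their 15 downstream copies reached 1 CPM, and the highest stood at 0.427 CPM. RefSeq annotation of another dog assembly, UU_Cfam_GSD_1.0, lists 19 protein-coding genes from IFNAR2 to RCAN1, each of them a single time. It lists SLC5A3 but no gene under the symbol MRPS6, and the 4 coding genes between SLC5A3 and RCAN1 are KCNE2, SMIM11A, FAM243A and SMIM34A. The counting tool by default leaves out reads that map to several places, and its recorded command sets no option to keep them. Whether reads of SLC5A3, or of the first exon of MRPS6, were lost in this way was not tested, since the sequences of the copies were not compared, and the levels of SLC5A3 below are uncertain to that extent.

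SLC5A3 was close to the limit of detection at 300 mOsm and rose strongly with hyperosmolality. Its counts were 14 and 6 in the Neg-siRNA (300 mOsm) libraries of passages 15 and 17. Their exact 95% Poisson intervals were 7.65 to 23.5 and 2.20 to 13.1. These intervals cover counting error only and are too narrow if the mates of a read pair were counted separately. At 500 mOsm the control libraries held 701 and 477 counts. Scaled for depth, this was 0.315 and 0.178 CPM against 19.0 and 11.9 CPM, and the groups did not overlap. The log2 fold change was 5.92 (SE 0.45, n = 2 libraries per group), a 60.5-fold rise, with an adjusted p of 6.09e-06 in edgeR's quasi-likelihood test with Benjamini-Yekutieli adjustment. In this comparison 11.3% of all genes tested were called higher and 9.23% lower, 20.6% in all. Within passages the log2 fold change was 5.92 in passage 15 and 6.07 in passage 17. SLC5A3 had the 65th largest rise among the 12424 genes whose mean was 1 CPM or more.

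MRPS6 was well expressed at 300 mOsm and rose in the same comparison. The Neg-siRNA (300 mOsm) libraries held 470 and 436 counts of MRPS6, or 10.6 and 12.9 CPM. The Neg-siRNA (500 mOsm) libraries held 10745 and 11750 counts, or 291 and 294 CPM. Every 500 mOsm library was far above every 300 mOsm library, and the control libraries at 500 mOsm were nearly equal. The log2 fold change was 4.64 (SE 0.17, n = 2 per group) with an adjusted p of 5.90e-08, the 114th largest rise among the same 12424 genes and the 35th among the 9203 whose mean was 10 CPM or more. In these bulk libraries a rise in mRNA per cell and a larger share of cells that express the gene cannot be told apart.

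**Figure D2:**
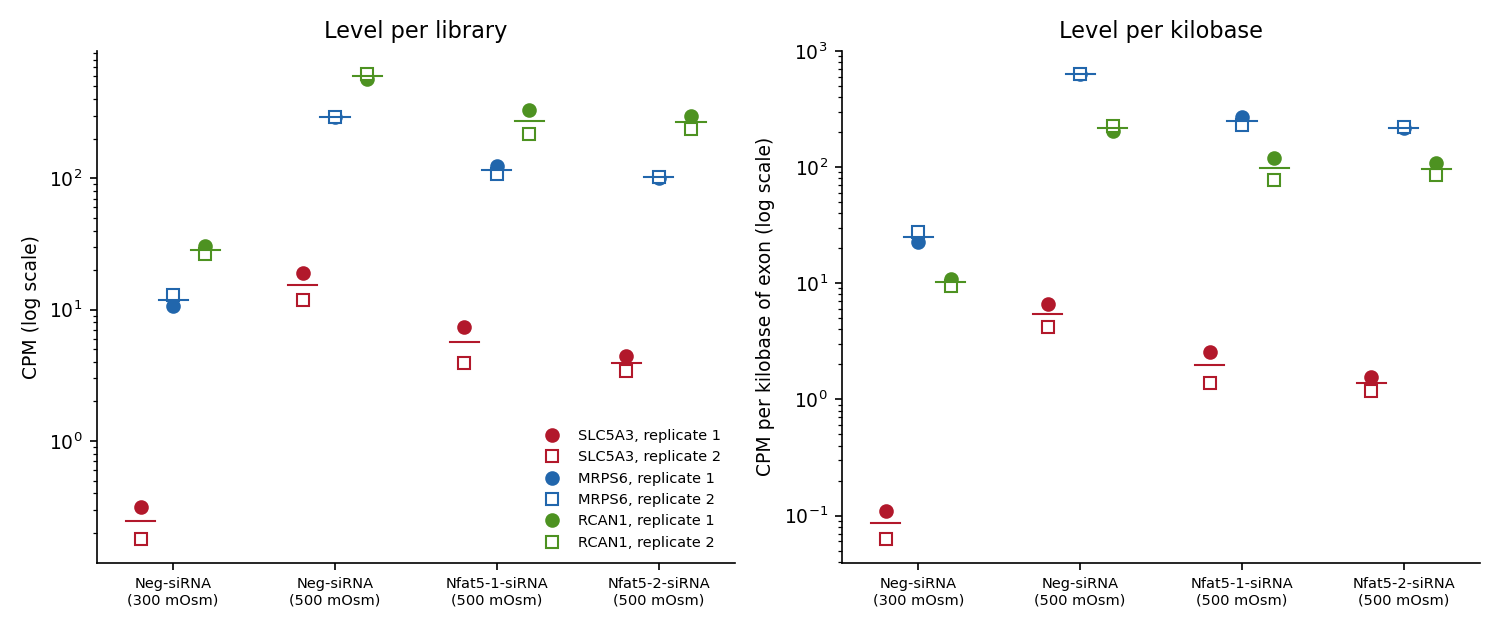
Levels of SLC5A3, MRPS6 and RCAN1 in the 8 libraries, on log axes, as CPM (left) and as CPM per kilobase of exon (right). Filled circles are replicate 1 (passage 15), open squares replicate 2 (passage 17), and lines the mean of the 2 libraries; for all 3 genes both 300 mOsm libraries lie below the 6 libraries at 500 mOsm.

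The Nfat5 siRNAs asked how far this rise depended on NFAT5. None of the tables used here pairs NFAT5 with an identifier of the count table. At the place next to NQO1 where RefSeq lists NFAT5, the count table has ENSCAFG00000020254, whose identity rests on that place alone. Its level was 21.8 and 23.6 CPM in control cells at 300 mOsm, 85.9 and 78.5 CPM in control cells at 500 mOsm, 104 and 88.1 CPM in the libraries labelled Nfat5-1-siRNA, and 72.2 and 73.5 CPM in those labelled Nfat5-2-siRNA. Its log2 difference from Neg-siRNA (500 mOsm) was 0.22 (SE 0.14) for Nfat5-1-siRNA. For Nfat5-2-siRNA it was -0.17 (SE 0.14), and both had an edgeR adjusted p of 1.00. The counts of this gene therefore give no check of the siRNA labels, which are used below as given. NFAT5 protein, which the study measured by western blot, is not part of the count data.

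MRPS6 fell with both siRNAs at 500 mOsm. The libraries labelled Nfat5-1-siRNA held 5794 and 5040 counts of MRPS6, or 124 and 107 CPM, a log2 fold change of -1.34 (SE 0.15, edgeR adjusted p = 0.000771) against the control siRNA. Those labelled Nfat5-2-siRNA held 4261 and 4309 counts, or 101 and 102 CPM, a log2 fold change of -1.53 (SE 0.15, edgeR adjusted p = 0.000184). All 4 siRNA libraries lay below both control libraries at 500 mOsm. In the background, 4.53% of genes tested were called lower with Nfat5-1-siRNA and 3.40% higher, and 7.38% were called lower with Nfat5-2-siRNA and 4.67% higher. Without replicate 2 of Nfat5-1-siRNA, in a fit that did not pair the passages, the fall with that siRNA was no longer called (log2 fold change -1.23).

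SLC5A3 fell with Nfat5-2-siRNA, and with Nfat5-1-siRNA its call depended on the fit. With Nfat5-2-siRNA it had 188 and 144 counts, or 4.47 and 3.41 CPM, a log2 fold change of -1.97 (SE 0.34, edgeR adjusted p = 0.00899). The fits that left out 1 library did not pair the passages. In them this call was lost without replicate 1 of Neg-siRNA (500 mOsm) (-1.50). It was also lost without replicate 1 (-2.18) or replicate 2 (-1.79) of Nfat5-2-siRNA. With Nfat5-1-siRNA, SLC5A3 had 341 and 184 counts, or 7.33 and 3.92 CPM, and a log2 difference of -1.46 (SE 0.33). In the main fit, which did not pair the passages either, this difference missed the threshold, with an edgeR adjusted p of 0.0716. With passage as a replicate block the difference was -1.48 with an edgeR adjusted p of 4.28e-07, in a fit that called 11.9% of genes lower. DESeq2 also called it without the block (-1.44, DESeq2 adjusted p = 0.00532). Both libraries of each siRNA lay below both control libraries at 500 mOsm.

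The replicates of SLC5A3 differed by passage. Its CPM was higher in passage 15 than in passage 17 in all 4 groups, by 0.83 (log2) in control cells at 300 mOsm, 0.67 in control cells at 500 mOsm, 0.90 in Nfat5-1-siRNA and 0.39 in Nfat5-2-siRNA. For MRPS6 the same differences were -0.29, -0.01, 0.21 and -0.01. Within passages, the log2 difference of SLC5A3 between Nfat5-1-siRNA and the control siRNA was -1.38 in passage 15 and -1.61 in passage 17, and with Nfat5-2-siRNA it was -2.09 and -1.81.

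No difference between the siRNA constructs was called for either gene. For SLC5A3, Nfat5-2-siRNA differed from Nfat5-1-siRNA by -0.51 (log2, SE 0.33), and the libraries of the constructs overlapped, with differences of -0.71 in passage 15 and -0.20 in passage 17. Without replicate 1 of Nfat5-1-siRNA the difference was 0.01. For MRPS6 the difference was -0.19 (SE 0.15), or -0.30 and -0.07 within passages, and both Nfat5-2-siRNA libraries lay below both Nfat5-1-siRNA libraries. Both had an edgeR adjusted p of 1.00, in a comparison that called 0.0403% of genes. The order of the groups was therefore the same for the pair, with Neg-siRNA (500 mOsm) highest, Nfat5-1-siRNA and Nfat5-2-siRNA in between with no called difference, and Neg-siRNA (300 mOsm) lowest.

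Under either siRNA both genes stayed well above their level at 300 mOsm. SLC5A3 was 22.0-fold higher than in Neg-siRNA (300 mOsm) with Nfat5-1-siRNA (edgeR adjusted p = 4.84e-05) and 15.4-fold higher with Nfat5-2-siRNA (edgeR adjusted p = 0.000122). MRPS6 was 9.88-fold higher (edgeR adjusted p = 5.34e-07) and 8.68-fold higher (edgeR adjusted p = 4.47e-07). In these comparisons 13.2% and 12.7% of genes tested were called higher. The siRNA and osmolality comparisons share the control libraries at 500 mOsm. On the log2 scale, the difference with Nfat5-1-siRNA amounted to 24.7% of the hyperosmotic rise for SLC5A3 and 28.8% for MRPS6, and that with Nfat5-2-siRNA to 33.3% and 32.9%. On the CPM scale the same differences amounted to 64.7% and 63.0% with Nfat5-1-siRNA and to 75.7% and 68.0% with Nfat5-2-siRNA.

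Per length, MRPS6 was far more abundant than SLC5A3 in every library. In CPM per kilobase of exon, the mean level of SLC5A3 was 0.0863 ± 0.0340 (SD, n = 2) in control cells at 300 mOsm, 5.42 ± 1.75 in control cells at 500 mOsm, 1.97 ± 0.844 with Nfat5-1-siRNA and 1.38 ± 0.263 with Nfat5-2-siRNA. MRPS6 had 25.2 ± 3.54, 628 ± 4.06, 249 ± 26.1 and 218 ± 1.01 CPM per kilobase in the same groups. Hyperosmolality thus added 603 CPM per kilobase to MRPS6 and 5.34 to SLC5A3, although the proportional rise of SLC5A3 was the larger. The part of the short exon models, of a shared leader exon and of the repeated stretch in these levels was not tested. The ratio between the genes is a ratio of counted reads per annotated kilobase.

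Within a library the ratio of the genes does not depend on the scaling of that library. MRPS6 exceeded SLC5A3 per kilobase by 206 and 445 times in the control libraries at 300 mOsm and by 93.9 and 151 times in those at 500 mOsm. The ratios were 104 and 168 with Nfat5-1-siRNA and 139 and 183 with Nfat5-2-siRNA, and in each group the passage 17 library had the higher ratio. From 300 to 500 mOsm the log2 count ratio went from 5.63 ± 0.79 (SD) to 4.28 ± 0.48, a difference of -1.35, and these groups did not overlap. The exact two-sided permutation test gave p = 0.333, which is the smallest value this test allows with 2 against 2 libraries, so this test cannot reach 0.05. No model with passage as a term was fitted to the ratio. The difference was -1.13 in passage 15 and -1.56 in passage 17. With the siRNAs the log2 ratio differed from that of Neg-siRNA (500 mOsm) by 0.15 with Nfat5-1-siRNA and 0.42 with Nfat5-2-siRNA, both with an exact permutation p of 0.667 and with overlapping libraries. Within passages 15 and 17 these differences were 0.15 and 0.15 with Nfat5-1-siRNA and 0.56 and 0.28 with Nfat5-2-siRNA. The ratio was thus lower at 500 than at 300 mOsm and somewhat higher with either siRNA in both passages. With 2 against 2 libraries the permutation test could call none of these differences.

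**Figure D3:**
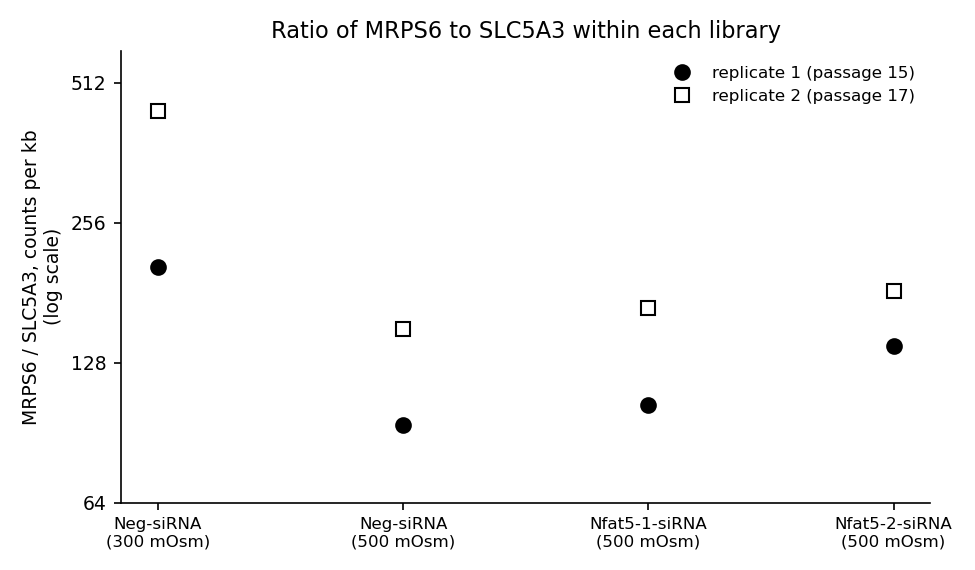
Ratio of MRPS6 to SLC5A3 counts per kilobase of exon in each of the 8 libraries, on a log axis, with filled circles for passage 15 and open squares for passage 17. Both Neg-siRNA (300 mOsm) libraries (206 and 445) lie above the 6 libraries at 500 mOsm (93.9 to 183).

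The genes between SLC5A3 and MRPS6 had few counts. The table has 23 genes there, of which 8 were at 0 in all libraries and 13 passed the filter on low counts. None reached a mean of 1 CPM, the highest stood at 0.427 CPM, and no library held more than 28 counts of any of them. None of the 13 was called by edgeR in the osmolality comparison or in either siRNA comparison, with or without passage as a block. In each of these comparisons 0 of the 13 had an unadjusted p under 0.05 in edgeR, and DESeq2 called 0. Counts this low limit what the tests can call. ENSCAFG00000033018, with a hyperosmotic log2 difference of 5.45 on at most 8 counts per library, was not called. Without the block, 20.6% of all genes tested were called in the osmolality comparison. With Nfat5-1-siRNA 4.53% were called lower and 3.40% higher, and with Nfat5-2-siRNA 7.38% lower and 4.67% higher. With the block, 33.1% of all genes tested were called in the osmolality comparison, 21.5% with Nfat5-1-siRNA and 26.1% with Nfat5-2-siRNA. Most of this interval is the downstream copy of the repeated stretch, in which 0 of 22 genes had a mean of at least 1 CPM, against 4 of 19 (21.1%) in the upstream copy and 114 of 395 (28.9%) on the rest of chromosome 31. Reads that map to both copies may be uncounted here too, so these low counts need not be low expression.

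RCAN1, which encodes a protein inhibitor of the phosphatase calcineurin, was the neighbour that moved with the pair. It is ENSCAFG00000009559 at chr31:29907733-30002322 on the minus strand, with 2768 exonic bases, and the nearer end of its span lies 328415 bases past MRPS6. Its CPM was 30.3 and 26.4 in control cells at 300 mOsm, 569 and 621 in control cells at 500 mOsm, 330 and 216 with Nfat5-1-siRNA, and 298 and 235 with Nfat5-2-siRNA. The control libraries at 500 mOsm were the highest and those at 300 mOsm the lowest, without overlap, while the siRNA groups overlapped each other. RCAN1 rose with hyperosmolality by 4.39 (log2, SE 0.23, edgeR adjusted p = 4.11e-07), and it fell by 1.12 with Nfat5-1-siRNA (SE 0.20, edgeR adjusted p = 0.0163) and by 1.16 with Nfat5-2-siRNA (SE 0.20, edgeR adjusted p = 0.00899). Its siRNA differences amounted to 25.6% and 26.4% of its log2 rise. Per kilobase, hyperosmolality added 205 CPM to RCAN1, less than to MRPS6.

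Of the 43 other genes within 500000 bases of the pair, 16 were at 0 in all libraries, 23 were tested and 4 had a mean of at least 1 CPM. Hyperosmolality raised 1 of the 23, RCAN1, and lowered 1, ENSCAFG00000009315, a gene of the upstream copy at chr31:28210544-28237684. That gene had 306 and 334 counts at 300 mOsm and 69 and 130 counts in Neg-siRNA (500 mOsm), a log2 fold change of -1.70 (SE 0.36, edgeR adjusted p = 0.0229). Its siRNA differences of 0.59 and 0.20 were not called. With Nfat5-1-siRNA 1 gene of the region was called, RCAN1, and 2 with passage as a block, where ENSCAFG00000030829 was also higher (log2 fold change 0.76, edgeR adjusted p = 0.00111). Of all genes tested, 4.53% were called lower and 3.40% higher with Nfat5-1-siRNA, and 21.5% were called with the block. With Nfat5-2-siRNA, where 7.38% of all genes were called lower and 4.67% higher, RCAN1 fell and ENSCAFG00000030829, at chr31:28133037-28165461, rose by 0.87 (log2, SE 0.17, edgeR adjusted p = 0.0255). In the osmolality comparison 2 of the 23 genes tested were called, against 20.6% of all genes, and both were among the 4 with a mean of at least 1 CPM.

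The nearest expressed genes on either side followed no common direction. ENSCAFG00000030556, a model of 165 bases at chr31:29791418-29791582 with a mean of 6.59 CPM, is the expressed gene nearest to MRPS6, and its hyperosmotic log2 difference of -0.52 (SE 0.24) was not called. ENSCAFG00000009596, beyond RCAN1, had a mean of 3.51 CPM and was called in none of these comparisons. On the far side of SLC5A3, ENSCAFG00000031278 fell with Nfat5-1-siRNA by 0.99 (log2, SE 0.20, edgeR adjusted p = 0.0429). Its difference of -0.60 with Nfat5-2-siRNA and its hyperosmotic difference of 0.52 were not called.

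**Figure D4:**
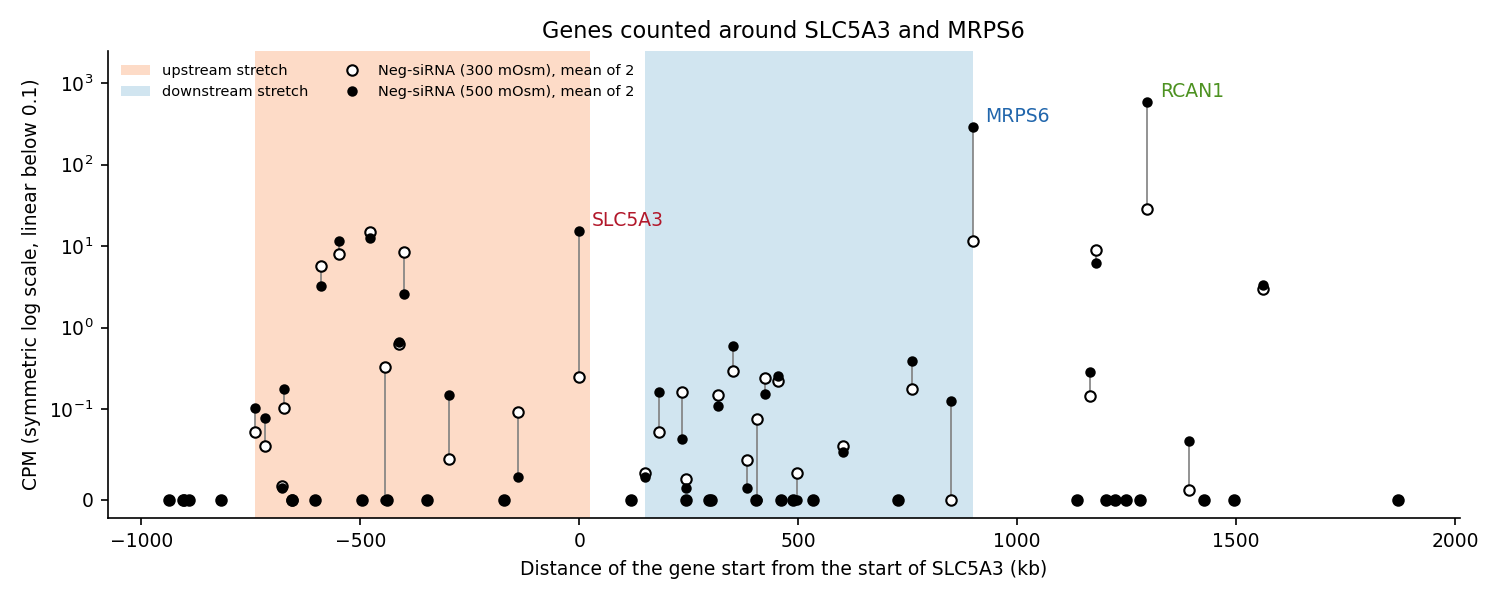
Mean CPM (vertical axis, symmetric log scale) of the genes counted around the pair against the distance of each gene start from the start of SLC5A3 in kb. Open circles are control cells at 300 mOsm and filled circles control cells at 500 mOsm, means of 2 libraries joined by a line, and shading marks the upstream and downstream copies of the repeated stretch; SLC5A3, MRPS6 and RCAN1 have the long lines, and no gene between SLC5A3 and MRPS6 reaches 1 CPM.

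The pattern of SLC5A3 over the libraries was shared by many genes. By Pearson's r of log2 CPM over the 8 libraries, among 12423 other genes, those most like SLC5A3 were ENSCAFG00000005523 and AGFG2 (both 0.998), ENSCAFG00000018856, THBS1 and ENSCAFG00000017077 (0.997 each). THBS1, which encodes the matrix protein thrombospondin 1, had a mean of 206 CPM in control cells at 300 mOsm, against 3687 CPM at 500 mOsm. Pearson's r takes no account of the size of a change. In the same groups SLC5A3 went from 0.246 to 15.5 CPM and AGFG2 from 30.1 to 520 CPM. ENSCAFG00000005523 went from 85.4 to 343 CPM, ENSCAFG00000017077 from 26.1 to 96.3 CPM and ENSCAFG00000018856 from 131 to 318 CPM. MRPS6 came 64th in this order (r = 0.985) and RCAN1 26th (r = 0.990). In all, 382 genes (3.07%) had an r above 0.95 with SLC5A3. These values describe 8 libraries in which the step between osmolalities dominates, and no test was made of them.

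The genes most like MRPS6 were PIR (0.998), NR1H4 and NPTX2 (both 0.997), DSC3 (0.996) and IQCJ-SCHIP1 (0.995). NR1H4 encodes the bile acid receptor FXR and DSC3 a desmosomal cadherin. NR1H4 went from a mean of 0.852 CPM in control cells at 300 mOsm to 42.7 CPM at 500 mOsm, and it was at 14.9 CPM with Nfat5-1-siRNA and 15.1 CPM with Nfat5-2-siRNA. SLC5A3 came 68th in this order (r = 0.985) and RCAN1 14th (r = 0.992). Spearman's rho takes few values over 8 libraries, and 32 genes tied at 1.000 with SLC5A3, AGFG2 among them. By rho MRPS6 came 508th for SLC5A3 and SLC5A3 584th for MRPS6, both behind many ties.

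Other genes of osmolyte supply could be followed only where the study's own list of regulated genes pairs a symbol with an identifier. The study drew that list from these samples and describes it as genes raised by hyperosmolality and lowered by both siRNAs. The direction of its members is therefore not independent evidence. It named 4 of 9 genes of osmolyte accumulation, among them SLC5A3 itself. SLC6A12, the betaine carrier, rose by 9.01 (log2, SE 0.42, edgeR adjusted p = 2.24e-07). AKR1B1, aldose reductase, which makes sorbitol, rose by 5.82 (SE 0.28, edgeR adjusted p = 2.39e-07), and SLC6A6, the taurine carrier, rose by 3.66 (SE 0.23, edgeR adjusted p = 1.62e-06). The rise of SLC5A3, 5.92, was thus near that of AKR1B1. With Nfat5-1-siRNA 3 of the 4 fell, against 4.53% of all genes tested, and all 4 did with passage as a block, against 11.9%. With Nfat5-2-siRNA all 4 fell, against 7.38% of all genes. AKR1B1 fell by 2.21 and 2.10, SLC6A12 by 1.74 and 1.92, and SLC6A6 by 1.29 and 1.47.

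ISYNA1, the enzyme that makes the precursor of myo-inositol from glucose 6-phosphate, was the other of 2 matched genes among 20 of myo-inositol handling. Its CPM was 11.1 and 11.7 in control cells at 300 mOsm, 152 and 118 in control cells at 500 mOsm, 24.4 and 20.5 with Nfat5-1-siRNA, and 25.5 and 24.0 with Nfat5-2-siRNA. It rose by 3.57 (log2, SE 0.18, edgeR adjusted p = 3.76e-07) and fell by 2.59 and 2.45 with the siRNAs. Its libraries with siRNA lay much nearer to the 300 mOsm libraries than those of SLC5A3 did on the log2 scale, and its r with SLC5A3 was 0.837, the 1483rd in order. The other osmolyte genes were nearer to SLC5A3 in this order, SLC6A6 at 0.993 (16th), AKR1B1 at 0.978 (106th) and SLC6A12 at 0.976 (123rd). By Spearman's rho, however, ISYNA1 and AKR1B1 were level at 0.929, behind SLC6A12 at 0.952 and SLC6A6 at 1.000. SLC5A3 was the matched member of 12 genes of the SLC5 family.

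**Figure D5:**
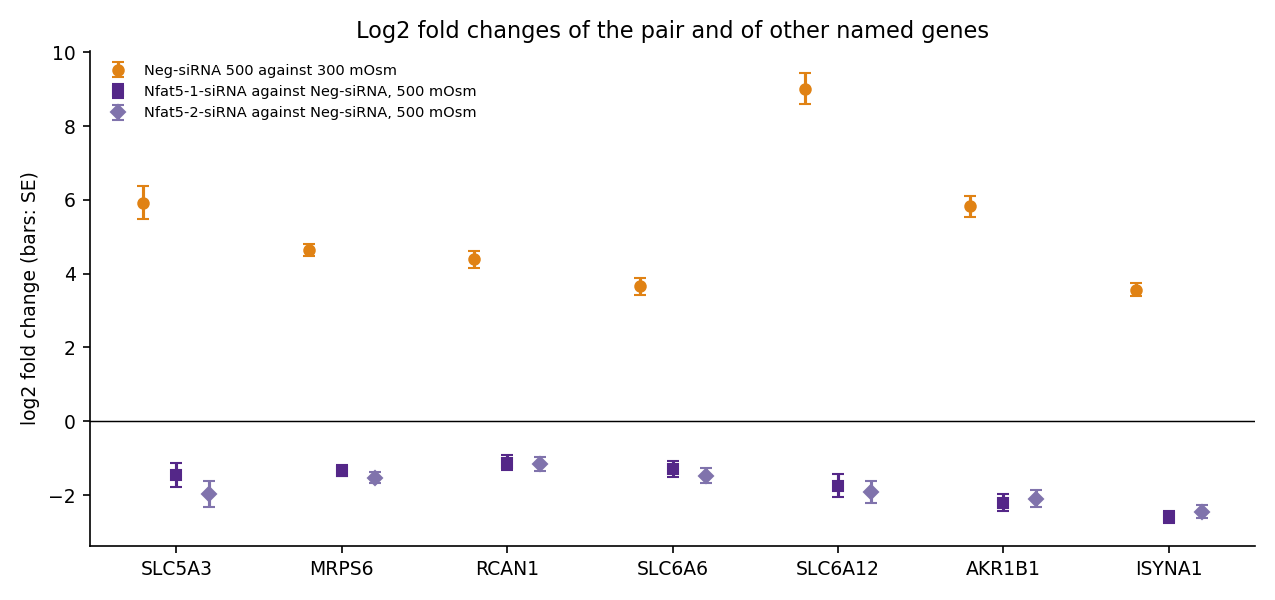
Log2 fold changes (points) with their standard errors (bars) from the edgeR fit for SLC5A3, MRPS6, RCAN1 and 4 other named genes. Circles are Neg-siRNA at 500 against 300 mOsm, squares Nfat5-1-siRNA and diamonds Nfat5-2-siRNA against Neg-siRNA at 500 mOsm; all 7 genes lie above 0 for osmolality and below 0 for both siRNAs, and SLC5A3 with Nfat5-1-siRNA (-1.46) was not called.

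Few other genes of the mitochondrial ribosome could be matched. MRPS6 was the matched member of 31 genes of the small subunit, and MRPL1 and MRPL2 were those of 51 genes of the large subunit. MRPL1 rose by 1.07 (log2, SE 0.18, edgeR adjusted p = 0.00393) and fell by 1.07 and 1.37 with the siRNAs. MRPL2 went the other way with osmolality, although it stands on the study's list, and fell by 0.70 (SE 0.16, edgeR adjusted p = 0.0341), and its siRNA differences were -0.69 (edgeR adjusted p = 0.0802) and -0.75 (edgeR adjusted p = 0.0356). With passage as a block MRPL2 was called lower with Nfat5-1-siRNA as well (edgeR adjusted p = 0.00138). The rise of MRPS6, 4.64, was larger than that of MRPL1. Both were matched through the study's list, so their direction is not independent evidence.

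Of 17 markers fixed for kidney epithelium, fibroblasts, endothelium and leukocytes, 1 could be matched, PDGFRA, and none of the 7 epithelial markers could, so the labelled cell type was not checked. PDGFRA, a growth factor receptor of mesenchymal cells, had 34.1 ± 3.60 CPM (SD, n = 2) in control cells at 300 mOsm and 62.0 ± 8.97 CPM at 500 mOsm, a log2 rise of 0.86 (SE 0.17, edgeR adjusted p = 0.0135). It stood at 32.2 ± 2.10 CPM with Nfat5-1-siRNA and 30.9 ± 4.38 CPM with Nfat5-2-siRNA. PDGFRA was matched through the study's list, so its direction is not independent evidence, and its part in the levels of SLC5A3 and MRPS6 was not tested.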

How the data were processed

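Polyadenylated RNA was sequenced on a NovaSeq as paired reads of 51 bases. According to the study's methods, the authors aligned them with HISAT2 2.0.5 to CanFam3.1 and counted them with featureCounts on the Ensembl 92 annotation. The deposited counts per gene are over exons. The featureCounts version, 1.5.1, is not given in those methods. Per the file headers the strand option was 0, so sense and antisense reads were not separated, and no option for paired or multiply mapped reads was set. Mates may thus be counted separately, which makes Poisson intervals too narrow. Over genes and libraries, a count of 2 occurred 8508 times against 7419 for a count of 1. Counts of 4 (4171 times) and 6 (2573) were likewise more frequent than those of 3 (3141) and 5 (2162). The cause of this excess of even counts was not tested.

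Here, all 8 libraries were fitted together in edgeR 4.0.16 (R 4.3.3; TMM scaling, quasi-likelihood F-test, two-sided) for genes with 5 or more counts in all, and p-values were adjusted over 19835 genes by the Benjamini-Yekutieli method at 0.05. Called means an adjusted p under 0.05. p-values rest on 2 cell passages per group. Replicate numbers mark shared passages per the labels. Deviations of equally numbered libraries from their group means correlated with r from 0.123 to 0.465 over 12424 genes in 6 pairs of groups, so the passages pair the samples. Log2 CPM used a prior count of 2. DESeq2 1.42.0 and other settings were alternatives. The scripts were tested on simulated data.

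The genes named are the pair, genes called within 500000 bases, the 3 nearest genes on each side with a mean of at least 1 CPM, the 5 genes most like each of the pair, and matched members of the lists. The pair and the lists were chosen with earlier results of these data known. Symbols came from the study's list of regulated genes (860 symbols, all found), and 8 of 120 list genes matched. The pair, RCAN1, ISYNA1 and the other genes followed under a symbol thus stand on that list. Their direction is not independent evidence. No genome of CanFam3.1 was used here. The count table held no columns of other samples.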

Additional observations from a re-analysis of the deposited data

How the results depend on the processing

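The hyperosmotic rises of SLC5A3 and MRPS6, and their excess over 300 mOsm under either siRNA, kept their direction and call under each setting tried. With the replicate block, which pairs the passages, 6565 genes were called in the osmolality comparison, 4264 in that of Nfat5-1-siRNA and 5168 in that of Nfat5-2-siRNA, against 4077, 1572 and 2390, and SLC5A3 was called lower with Nfat5-1-siRNA (-1.48); the block changed no other call of the pair, but with Nfat5-1-siRNA the genes called within 500000 bases went from 1 to 2, as they did with Benjamini-Hochberg adjustment or a window of 1000000 bases. Without a filter on low counts 2866 and 3760 genes were called with the siRNAs, and SLC5A3 with Nfat5-1-siRNA (-1.46) was called (edgeR adjusted p = 0.000303). DESeq2 with Benjamini-Yekutieli adjustment called 2682 genes with Nfat5-1-siRNA, SLC5A3 among them (-1.44, adjusted p = 0.00532). Benjamini-Hochberg adjustment called 7033, 4033 and 5250 genes in the 3 comparisons, and SLC5A3 with Nfat5-1-siRNA (-1.46, edgeR adjusted p = 0.00683). A fit of only the 4 samples compared called 1565 genes with Nfat5-2-siRNA.

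Leaving out each library in turn, where the lone library of a group is assumed to vary like the other groups, gave 2384 to 4157 genes called in the osmolality comparison, and 159 to 1620 and 954 to 2272 in those of Nfat5-1-siRNA and Nfat5-2-siRNA. These fits did not pair the passages. For SLC5A3 the log2 fold change lay between 5.49 and 6.37 in the osmolality comparison. It lay between -1.98 and -1.02 for Nfat5-1-siRNA (called in 0 of 8) and between -2.18 and -1.50 for Nfat5-2-siRNA (called in 5 of 8). That of MRPS6 ranged from 4.46 to 4.79, from -1.45 to -1.23 and from -1.53 to -1.42. The SLC5A3 difference between the constructs ranged from -0.89 to 0.01, reversing without replicate 1 of Nfat5-1-siRNA. The cause of these changes was not tested. At 300 mOsm SLC5A3 rests on 14 and 6 counts, which limits the precision of its fold changes and ratios.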
